A study of Danio rerio with 12 samples.

Results

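The response of the zebrafish pineal gland to 1 h of light was compared between the hours around subjective dusk and those around subjective dawn. The comparison used all 12 arrays of the series, as 6 pairs of a light and a dark array of the same circadian time (CT). The pairs of CT10, CT14 and CT18 formed the dusk side and the pairs of CT22, CT2 and CT6 the dawn side, and the quantity of interest was the light minus dark difference on the dusk side minus that on the dawn side. The grouping of times was chosen by a rule that had earlier results of these data in view, so this difference is described below with its error and is given no p-value for single genes. For single genes, tests are given only for the mean light response over the 6 times and for the dusk minus dawn level, which are separate measures in the design. For the difference itself only counts over all probe sets are given, and an unadjusted p under 0.01 on it served to name genes.

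All fish were adults of 0.5 to 1.5 years and both sexes of the line Tg(aanat2:EGFP)Y8, in which the regulatory regions of aanat2 drive a green fluorescent protein in the pineal gland. They had lived under alternating light and dark of 12 h each and entered constant darkness at the end of the day before sampling. Dark controls stayed there, and light groups received light of 12 W/m2 during the last 1 h. Each array held RNA pooled from 12 glands, so 1 pool stood for each time and treatment, the 3 times of a side served as its replicates, and p-values measure the spread over times and pools.

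The fish pineal gland is itself a photoreceptor organ: its cells carry their own opsins and their own clock, and they make melatonin in the dark. In that clock, the activators Clock and Bmal drive the genes of their repressors, the Period and Cryptochrome proteins, Bhlhe40, Bhlhe41 and Ciart, through E-box elements. Light resets such clocks differently at different times of day, classically with delays in the early night and advances in the late night, and acts in part by switching on clock repressor genes. In fish and bird pineal cells light also lowers cyclic AMP, and several genes that restrain cyclic AMP and kinase signalling follow that messenger.

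Markers of the labelled tissue were present: the median signals of aanat2, exorh, crx, tph1a, gnat2 and neurod1 exceeded those of 95.3% to 99.0% of all probe sets, and that of otx5 exceeded 71.2%. Light minus dark in the mean level of these 7 markers was -0.13, -0.52 and 0.62 log2 at CT10, CT14 and CT18. At CT22, CT2 and CT6 it was -0.32, 0.18 and 0.09, so the marker level was not even across the pairs. Transcripts spiked into the hybridisation differed between the arrays in step with the comparison. Their mean log2 level, over 18 probe sets, was higher in light than in dark by 0.87 at CT10, 1.63 at CT14 and 0.97 at CT18, against -0.03 at CT22, 0.47 at CT2 and 0.78 at CT6, so the sides did not overlap in it. The dark array of CT22 stood apart from the other 5 dark arrays, at 10.62 against 9.58 to 9.83. The part of these spiked transcripts in the results was not tested beyond a fit that carried their level as a covariate.

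No probe set was called for the difference between the light responses. Of 9301 probe sets tested by limma with the time as a block, 0 had a Benjamini-Hochberg adjusted p under 0.05 (0%), 1043 had an unadjusted p under 0.05 (11.2%) and 242 had one under 0.01. Over the 6025 genes, each represented by its brightest probe set, the median difference was 0.09 log2 with a median SE of 0.33. The difference was positive in 3576 genes (59.4%) and negative in 2449. In 650 genes (10.8%) the 3 light responses around dusk all lay above the 3 around dawn, and in 377 genes (6.26%) they all lay below. Counts in the gene lists below are to be read against those shares. Over the 9301 probe sets the median difference was 0.08 log2, but 0.01 with quantile normalization and 0.02 with the spiked transcripts as a covariate. The difference was positive in 5330, 4733 and 4811 probe sets, in that order. The shares of genes were not counted at those settings. The median signal of an array rose from dark to light by more in each dusk pair than in any dawn pair. The part of that rise in the difference was not tested. Values are differences of log2(signal + 13), which understate the changes of weak probe sets, and in pooled tissue a lower signal can come from fewer cells of a type or from less RNA per cell, which cannot be told apart here.

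Genes called for the mean light response over the 6 times more often had the larger response around dusk than around dawn. For the mean light response, 223 probe sets were higher and 108 lower in light at an adjusted p under 0.05 by limma (3.56% of 9301), which gave 90 genes higher and 73 lower. Without the time as a block the counts were 114 and 60, and with the spiked transcripts as a covariate both were 0. None of the calls of single genes given below therefore held with that covariate. The spiked level was itself higher in light at every time but CT22, so that fit separates it poorly from light. The mean light response of jun was 1.63 ± 0.40 (SE) in it, against 1.76 ± 0.15 without it. That of per2 was 2.57 ± 0.41 against 1.62 ± 0.20, klf9 0.83 ± 0.33 against 1.73 ± 0.17 and bhlhe40 0.52 ± 0.38 against 1.14 ± 0.16. A call lost in that fit does not show that the response was absent. All 163 genes had side means of the same sign, which a choice by the mean over both sides favours, and some hardly differed from 0 around dawn, such as zc4h2 at -0.02, dnd1 at 0.06 and ciarta at 0.11. In 113 of them the response around dusk was the larger in absolute size. The share of all genes with a larger absolute response around dusk was not counted, so the 113 have no background. Among the 90 genes raised by light, the response was larger around dusk in 64, where 59.4% of all genes had a positive difference. The median response of the 90 was 1.01 log2 around dusk and 0.72 around dawn. The sides did not overlap in 20 of these genes with the larger response around dusk and in 2, cbfb and actb1, with the larger response around dawn. The shares of all genes in these directions were 10.8% and 6.26%. Among the 73 lowered genes, the medians were -0.77 around dusk and -0.60 around dawn. The response was larger around dusk in 49, where 2449 of all 6025 genes had a negative difference. The sides did not overlap in 15 of them with the larger response around dusk and in 10 with the larger response around dawn. For a lowered gene a larger response is a lower value, so the shares of all genes in these directions were 6.26% and 10.8%.

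**Figure D1:**
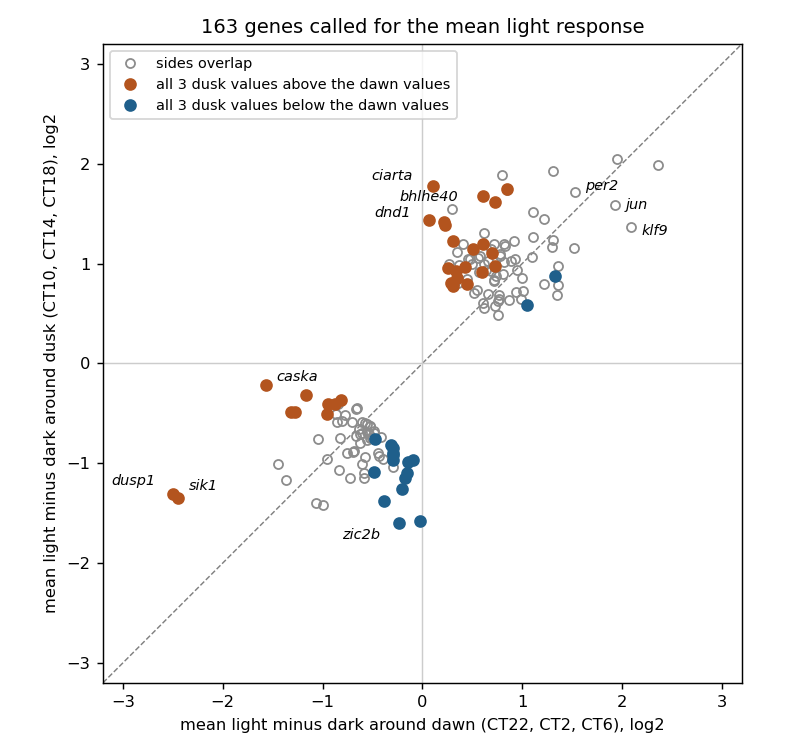
Mean light minus dark difference (log2) around dusk (vertical axis) against that around dawn (horizontal axis) for the 163 genes called for the mean light response; each point is 1 gene, filled where its 3 dusk values and 3 dawn values do not overlap, and the dashed line marks equal responses. In 113 of the 163 the point lies farther from 0 on the dusk axis, while dusp1 and sik1 lie farther from 0 on the dawn axis. The share of all genes in this was not counted.

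Among the kept genes of the clock's repressing arm, ciarta, bhlhe41 and bhlhe40 had the largest differences toward dusk. Ciarta encodes a repressor of Clock and Bmal. Its signal in the dark was 25.9, 118 and 910.4 at CT10, CT14 and CT18, and it was 129, 701 and 1868 after light. Around dawn, at CT22, CT2 and CT6, the dark arrays read 587, 179 and 36.1 and the light arrays 802, 144 and 42. All 3 dusk pairs were therefore far apart and the dawn pairs close together, although the dark arrays covered much the same range on both sides. The light response of ciarta was 1.78 ± 0.71 log2 around dusk (SD, n = 3), which is 3.43-fold, and 0.11 ± 0.37 around dawn, a difference of 1.67 ± 0.37 (SE). Its mean light response was 0.94 ± 0.19 (adjusted p = 0.0206, limma), a call that was lost without CT10, CT14, CT22 or CT6, with adjusted p between 0.0553 and 0.0826. Without the time block the response was 0.94 ± 0.88 (adjusted p = 0.605, limma). That fit sets aside the pairing by time, so the spread over times enters its error. The call was also lost with the spiked transcripts as a covariate (adjusted p = 0.934, limma).

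Bhlhe40, an E-box repressor whose gene is a known target of light in fish, had dark signals of 119, 375 and 3113 at CT10, CT14 and CT18 and light signals of 253, 1988 and 9835. At CT22, CT2 and CT6 its dark signals were 3348, 3102 and 1330.3 and its light signals 4718, 5504 and 1875. Light was followed by more bhlhe40 at all 6 times, with responses of 1.68 ± 0.68 log2 around dusk and 0.60 ± 0.19 around dawn (SD, n = 3) that did not overlap. The difference was 1.08 ± 0.33 (SE) and the mean light response 1.14 ± 0.16 (adjusted p = 0.00479, limma). Without the time block the mean light response was 1.14 ± 0.81 (adjusted p = 0.479, limma). With the spiked transcripts as a covariate the difference was 0.48 and the mean light response 0.52 (adjusted p = 0.934, limma). Bhlhe41, its close relative, read 59.2, 381 and 1741 in the dark at CT10, CT14 and CT18 and 109.8, 798 and 2853 after light. At CT22, CT2 and CT6 it read 911, 349 and 118 in the dark and 1066, 209 and 78.4 after light. The gene was higher after light at all 3 times around dusk and lower at CT2 and CT6, for a difference of 1.17 ± 0.30, while its mean light response of 0.25 ± 0.15 was not called.

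Per2, the Period gene most known for induction by light, had sides that overlapped. Its light responses were 2.16, 0.66 and 2.34 log2 at CT10, CT14 and CT18 and 1.66, 1.41 and 1.50 at CT22, CT2 and CT6. The dusk values thus lay on either side of the narrow dawn range, and the smallest response of the day was at CT14. The difference was 0.20 ± 0.39, beside a mean light response of 1.62 ± 0.20 (adjusted p = 0.00195, limma). Without CT14 the difference was 0.72. Cry1a, a light-responsive Cryptochrome gene in fish, had a difference of -0.30 ± 0.35 and a mean light response of 0.50 ± 0.18 that was not called (adjusted p = 0.144, limma). Both differences are smaller than their errors.

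Of the 12 kept genes of the clock's repressing arm, 9 had a positive difference (75.0%, against 59.4% of all genes). The list's median was 0.35, against 0.09 over all genes. In 5 the sides did not overlap with dusk higher (41.7% of the list, against 10.8% of all genes), the 3 repressors above, cry1b and the casein kinase gene csnk1db. In 2, csnk1e at -1.13 and fbxl3a at -0.68, they did not overlap with dusk lower (16.7%, against 6.26%). Csnk1e and csnk1db encode kinases that act on Period proteins, and fbxl3a encodes a subunit of the ubiquitin ligase that removes Cryptochromes. The list of its mean-light calls held ciarta, bhlhe40 and per2. Cry1b, a Cryptochrome gene chosen for mention after its values were seen, had light responses of 1.28, 0.83 and 0.54 around dusk and 0.47, 0.02 and -0.000321 around dawn.

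The activating arm and the D-box factors were more mixed. Of 7 kept activator genes, clockb (0.87 ± 0.38) and bmal1b (0.89 ± 0.42) did not overlap between the sides with dusk higher, and rorab (-0.72 ± 0.30), a nuclear receptor that drives Bmal genes, did not overlap with dusk lower. In this short list they made up 28.6% and 14.3%, against 10.8% and 6.26% of all genes. Clockb had light responses of 0.64, 0.49 and 0.59 around dusk and -0.09, -0.27 and -0.54 around dawn. The list's median of 0.75 became 0.19 with brain neuron markers as a covariate.

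Nfil3-5 encodes a bZIP repressor that binds D-box elements, and its light response differed in sign between times. Its dark signals were 1787, 645 and 169 at CT10, CT14 and CT18 and its light signals 3308, 512 and 78.4. At CT22, CT2 and CT6 its dark signals were 153, 285 and 3831 and its light signals 295, 1959 and 7156. Light was followed by higher signals at all 3 times around dawn, most at CT2, and around dusk at CT10 only. Its responses were -0.14 ± 0.95 log2 around dusk and 1.51 ± 1.06 around dawn, a difference of -1.65 ± 0.54 (SE) that was -1.04 without CT2. The dawn responses of 0.89 and 0.90 lay just above that of CT10, 0.88, so the gap between the sides was small. Its relative nfil3-6 was higher after light at all 6 times, by 0.78 to 1.63, with a difference of 0.41 ± 0.27.

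**Figure D2:**
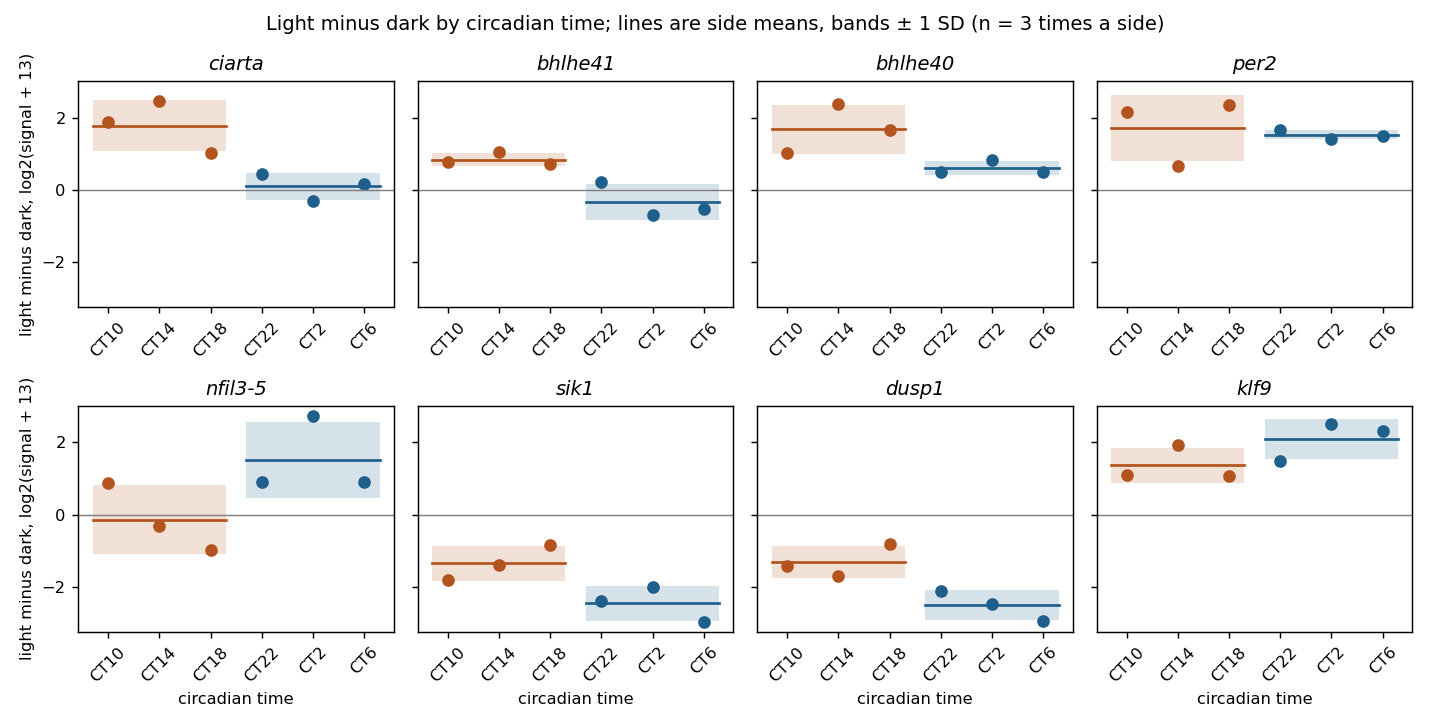
Light minus dark difference of log2(signal + 13) (vertical axis) at the 6 circadian times (horizontal axis) for 8 genes; points are single pairs of arrays, lines the means of the dusk side (brown) and dawn side (blue) and bands ± 1 SD (n = 3). Ciarta, bhlhe41 and bhlhe40 lie higher around dusk, sik1 and dusp1 lie lower around dawn, and the sides of per2 and klf9 overlap.

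Among genes that restrain signalling, sik1 and dusp1 fell after light as a mean over the day, and by more around dawn. Sik1 encodes a kinase that limits transcription driven by cyclic AMP. Its dark signals were 6148, 6638 and 5806 at CT10, CT14 and CT18, and 6041, 5417 and 6216 at CT22, CT2 and CT6. After light it read 1740.03, 2537 and 3244 around dusk and 1141, 1353 and 789 around dawn. The dark level was thus nearly flat, and all 3 dusk signals after light lay above all 3 dawn signals after light. The light response was -1.34 ± 0.49 log2 around dusk and -2.45 ± 0.49 around dawn, a difference of 1.1 ± 0.32 (SE), with a mean of -1.90 ± 0.16 (adjusted p = 2.59e-04, limma).

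Dusp1, which encodes a phosphatase that switches off MAP kinases, read 2563, 3137 and 1748 in the dark around dusk and 2844, 4371 and 4901 around dawn. After light it read 949, 960.4 and 988 around dusk and 648, 784 and 632 around dawn. Dark levels were highest at CT2 and CT6, and the signals after light were lowest on the dawn side. Its responses were -1.31 ± 0.45 and -2.50 ± 0.41 with no overlap, a difference of 1.19 ± 0.31, and its mean was -1.91 ± 0.15 (adjusted p = 2.59e-04, limma). The phosphodiesterase gene pde4ba went the other way, with -0.95, -0.16 and -1.92 around dusk and 0.40, 1.02 and -0.07 around dawn, a difference of -1.46 ± 0.43. With the level of skin markers as a covariate that difference was -0.62. Of the 16 kept brake genes, the sides did not overlap in 3 with dusk higher (18.8%, against 10.8% of all genes). They did not overlap in pde4ba alone with dusk lower (6.25%, against 6.26% of all genes). The third was cremb, at 1.55, a gene for a transcription factor of the cyclic AMP pathway that lies outside the naming rule and was picked after its values were seen.

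None of the 6 kept AP-1 genes, which encode immediate response factors, had sides that did not overlap. The shares of all genes were 10.8% with dusk higher and 6.26% with dusk lower, so a list of 6 is too short to differ from them by 0. Jun, a subunit of the AP-1 factor, was raised by 1.58 ± 0.35 log2 around dusk and 1.93 ± 0.42 around dawn, a difference of -0.35 ± 0.31, with a mean of 1.76 ± 0.15 (adjusted p = 2.62e-04, limma). Fosab, its partner, had a difference of 0.44 ± 0.55 and a mean of -1.22 ± 0.28 (adjusted p = 0.0364, limma). That call was lost without CT10, CT14, CT22 or CT2, with adjusted p between 0.0649 and 0.127, and also with no intensity trend (0.064) and without the time block (0.236). With the spiked transcripts as a covariate it was lost too (adjusted p = 0.655, limma). A second kept probe set of fosab had smaller light responses, -0.25 around dusk and -0.83 around dawn, and was higher after light at CT18 (0.65). Its difference was 0.58. Among 31 activity-regulated genes, which neurons switch on when they fire, 3 did not overlap with dusk higher (9.68%) and ier5l alone with dusk lower (3.23%). These shares lay below the 10.8% and 6.26% of all genes. The medians of that list were 0.02, 0.14 and 0.18 around dusk and -0.22, -0.05 and -0.03 around dawn, which did not overlap, as was the case for all genes. The list's median difference was 0.13. Mycb, at 0.77 ± 0.27, was higher after light at all 3 times around dusk and lower at all 3 around dawn.

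Glucocorticoid-linked genes were mixed. The median difference was -0.32. Of 16 kept genes 10 lay below 0 and 6 above (37.5%, against 59.4% of all genes). The sides did not overlap in 2 genes with dusk higher, cebpb and pfkfb3 (12.5%, against 10.8% of all genes), and in 0 with dusk lower (6.26% of all genes). The list's medians at single times averaged 0.29 around dusk and 0.21 around dawn. Klf9, a zinc finger repressor induced by glucocorticoids, was raised by light by 1.1, 1.92 and 1.07 around dusk and by 1.47, 2.50 and 2.30 around dawn. The sides overlapped through CT14 and CT22, and the difference was -0.73 ± 0.34 beside a mean of 1.73 ± 0.17 (adjusted p = 5.16e-04, limma). Cebpb, a bZIP factor of the same list, had responses of -0.56, 0.23 and 0.20 around dusk and -1.36, -0.86 and -1.02 around dawn, a difference of 1.04 ± 0.39. Leaving out CT2 moved the list's median to -0.07.

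Some photoreceptor genes had higher light responses around dusk, though the list's medians at single times overlapped between the sides. Those medians were 0.07, -0.06 and 0.51 around dusk and -0.28, 0.17 and -0.25 around dawn. Of 33 kept genes for opsins and the phototransduction cascade, 23 had a positive difference (69.7%, against 59.4% of all genes). In 8 the sides did not overlap with dusk higher (24.2%, against 10.8% of all genes) and in 0 with dusk lower. The list's median of 0.27 was -0.10 with brain neuron markers as a covariate and 0.06 without CT18, at which 31 of the 33 were higher after light. In the dark, 6 of the 33 genes were higher around dusk than around dawn, and after light 17 were. The shares of all genes in this were not counted. The list's median dusk minus dawn level was -0.28 in the dark and 0.01 after light, against -0.07 and 0.02 over all genes. Gngt2b encodes a cone transducin subunit. It read 114, 119 and 63.4 in the dark and 259, 205 and 103 after light at CT10, CT14 and CT18, and 80.6, 112 and 292 in the dark and 52.4, 80.6 and 118 after light at CT22, CT2 and CT6. It was thus higher after light in every dusk pair and lower in every dawn pair, with a difference of 1.53 ± 0.34.

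Cyp27c1, the enzyme that turns vitamin A1 into the A2 form used in red-shifted visual pigments, showed the same division with small steps. Its signal went from 169, 147 and 869 in the dark to 215, 204 and 1180.5 after light around dusk, and from 948, 410.4 and 267 to 742, 305 and 162 around dawn. The responses were 0.40 ± 0.07 and -0.48 ± 0.17, and their difference of 0.88 ± 0.25 lay between 0.78 and 0.98 under all alternatives. Opn1sw1, the ultraviolet cone opsin, had a difference of 1.66 ± 0.50, but its sides overlapped, and with the spiked transcripts as a covariate it was 0.37. Guca1c, pde6hb and cnga1a, genes of the cascade picked after their values were seen, had differences of 1.26, 0.82 and 0.92. Exorh, the pineal opsin, had 0.29 ± 0.49, which turned to -0.18 without CT18, -0.23 without CT22, -0.59 with brain neuron markers and -0.47 with skin markers as a covariate.

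Genes of melatonin synthesis and pineal identity did not share a direction. Aanat2, which sets the melatonin rhythm, had a difference of 0.28 ± 0.60 from responses of 1.21, -0.98 and 1.09 around dusk and -0.89, 0.12 and 1.25 around dawn, so both sides spanned 0. Neurod1 encodes a bHLH factor of pineal photoreceptors. It read 1165, 1782 and 1080.4 in the dark and 546, 610.03 and 1129 after light around dusk. Around dawn it read 954, 1082 and 1033 in the dark and 2191, 1314 and 1255 after light. The dark array of CT14 was the highest dark array, and the signals after light were lower than dark at CT10 and CT14 and higher than dark at the other 4 times. The difference was -1.43 ± 0.40, or -0.51 with the spiked transcripts as a covariate, and the mean light response was not called. Of 12 kept genes, otx5 alone did not overlap with dusk higher (8.33%, against 10.8% of all genes). Neurod1 and mao did not overlap with dusk lower (16.7%, against 6.26% of all genes).

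Genes for cytosolic ribosomal proteins, whose products build the ribosome, had the most one-sided pattern of the function lists. Of 70 kept genes, 66 had a positive difference (94.3%, against 59.4% of all genes). In 30 the sides did not overlap with dusk higher (42.9%, against 10.8% of all genes), and in 0 with dusk lower. The median was 0.48 (0.33 to 0.57 under the alternatives). The median response of the list was 0.09, 0.05 and 0.39 at CT10, CT14 and CT18 and -0.32, -0.23 and -0.12 at CT22, CT2 and CT6. The division lay in the light arrays: the dusk minus dawn level had a median of -0.08 in the dark and 0.34 after light. Over all genes these medians were -0.07 and 0.02. After light 65 of 70 genes were higher around dusk, a share that was not counted over all genes. Rps29 read 2287, 2737 and 2538 in the dark and 2792, 4446 and 3529.6 after light around dusk, and 2091, 3031 and 3199.7 in the dark and 1723, 2574 and 2467 after light around dawn. It was therefore higher after light in every dusk pair and lower in every dawn pair, with a difference of 0.78 ± 0.23. The same held for rps26 (0.83 ± 0.24) and rps19 (0.90 ± 0.29), and the difference was largest for rps4x, at 1.03 ± 0.29. Rps19 was 0.28 and rpl22 (0.86 ± 0.28) was 0.28 with the spiked transcripts as a covariate.

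The mitochondrial and proteasome lists showed a smaller shift of the same sign. Of 75 kept respiratory chain genes, 68 had a positive difference (90.7%, against 59.4% of all genes), with a median of 0.30. In 17 the sides did not overlap with dusk higher (22.7%, against 10.8% of all genes). Cox5ab, a subunit of cytochrome c oxidase, was higher after light by 0.16, 0.49 and 0.06 around dusk and had -0.76, -0.91 and -0.57 around dawn, a difference of 0.98 ± 0.27. Of 41 kept proteasome genes, 32 had a positive difference (78.0%), with a median of 0.29 that was 0.15 with the spiked transcripts as a covariate. In 9 the sides did not overlap with dusk higher (22.0%). In 2, psmd12 and psmd11b, they did not overlap with dusk lower (4.88%, against 6.26% of all genes). Psmb6 had 0.51, 0.85 and 0.36 around dusk and -0.46, -0.30 and -0.03 around dawn, and psmd3, a subunit of the proteasome lid, had the largest difference of the list, 1.50 ± 0.42. Most genes of these 3 lists are expressed in many cell types, though not every member is, and their shift is in signals that the authors had scaled to a common trimmed mean on each array.

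**Figure D3:**
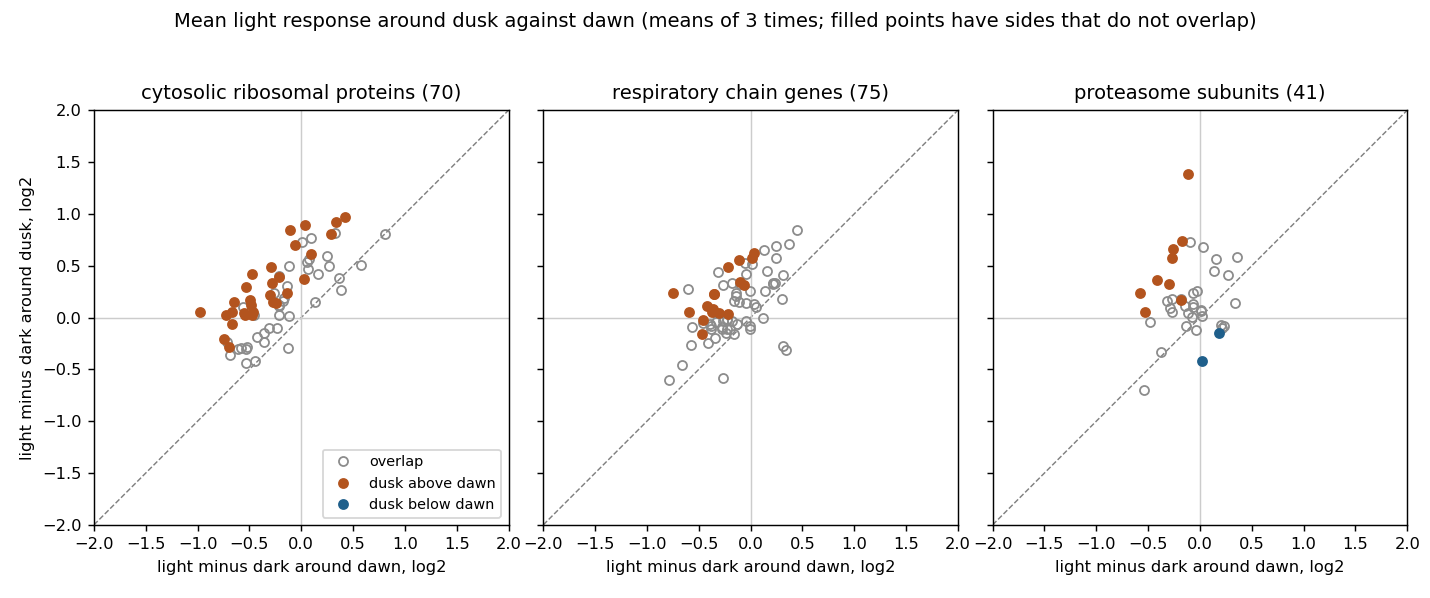
Mean light minus dark difference (log2) around dusk (vertical axis) against around dawn (horizontal axis) for genes of cytosolic ribosomal proteins, the respiratory chain and the proteasome; each point is 1 gene and a mean of 3 times, and the dashed line marks equal responses. Points lie above the line for 66 of 70, 68 of 75 and 32 of 41 genes, where 59.4% of all genes do.

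The lists of cell stress and metabolism had medians close to that of all genes. The median difference was 0.14 for 56 heat shock and ER stress genes, 0.16 for 30 antioxidant genes, 0.05 for 29 glycolysis genes, -0.02 for 24 sterol and fatty acid genes, 0.18 for 43 cell cycle genes and 0.15 for 16 photolyase and DNA repair genes. In that order, the sides did not overlap with dusk higher in 12.5%, 13.3%, 6.9%, 8.33%, 9.3% and 6.25% (10.8% of all genes). With dusk lower they did not overlap in 3.57%, 3.33%, 6.9%, 16.7%, 4.65% and 6.25% (6.26% of all genes). The 16.7% were 4 sterol and fatty acid genes. Hspd1, the mitochondrial chaperonin, had responses of 0.18, 0.78 and 0.94 around dusk and -0.16, -0.74 and -0.35 around dawn, a difference of 1.05 ± 0.29. Gpx1b, a glutathione peroxidase, was lowered by light as a mean (-0.74 ± 0.16, adjusted p = 0.0284, limma) and by more around dawn, with a difference of 0.85 ± 0.31. That call was lost without any 1 of CT10, CT18, CT2 or CT6 (adjusted p between 0.0611 and 0.117), and also with quantile normalization (0.0504), no intensity trend (0.0552), no time block (0.0795) and skin markers as a covariate (0.0948). With the spiked transcripts as a covariate it was lost too (adjusted p = 0.903, limma). Cry5, a photolyase gene induced by light in zebrafish cells, had a difference of 0.52 ± 0.42 with sides that overlapped, and 0.82 in its other kept probe set. It was 0.0754 without CT2, 0.22 without CT14 and 0.01 with the spiked transcripts as a covariate.

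Among genes with an unadjusted p under 0.01 for the difference, the 12 with the largest differences toward dawn were high on a few arrays. Tmem178a (-3.29), cdk5r2a (-2.74), ngb (-2.53), zic5 (-2.44), scn8aa (-2.34), ywhag2 (-2.30), maptb (-2.15), tspan7 (-2.09), zic2a (-2.08), gpm6aa (-1.80), stmn2a (-1.74) and stmn1b (-1.71) made up the set. Genes with a larger spread, outside that rule, had differences as large, among them neurod6b (-3.02), snap25a (-2.62), gad1b (-2.24), neurod6a (-2.14) and mbpa (-2.07), with sides that overlapped in all 5. Cdk5r2a encodes an activator of the neuronal kinase Cdk5, ngb neuroglobin, scn8aa a sodium channel, maptb a tau protein, and zic2a and zic5 zinc finger factors of dorsal neural tissue. In all 12 the dark level was higher around dusk than around dawn, by 1.1 to 2.18 log2, and the light level lower, by -1.11 to -0.19. The difference that named them is the dusk minus dawn level after light minus that in the dark, so the naming favours such opposite signs. The highest dark array was that of CT18 in 10 of the 12 and of CT14 in the other two, and the highest light array was that of CT22 in all 12.

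Cdk5r2a read 270.3, 943 and 2168 in the dark and 163, 385 and 283 after light at CT10, CT14 and CT18. At CT22, CT2 and CT6 it read 125, 229 and 201 in the dark and 1147, 236 and 242 after light. The dark array of CT18 and the light array of CT22 were thus far above their partners, while the pairs of CT2 and CT6 hardly differed. Tspan7, a tetraspanin, read 1158, 2272 and 3405 in the dark and 504, 898 and 494 after light around dusk. Around dawn it read 412, 709 and 832 in the dark and 1459.9, 552 and 615 after light. The sides did not overlap in 8 of the 12 genes, which naming by size and p of the difference favours. None of the 12 was called for the mean light response. Without CT22 the median of the 12 differences went from -2.22 to -1.61. A second kept probe set of zic2a gave -0.88 and one of stmn1b gave -1.52, with sides that overlapped in both.

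Markers of brain neurons moved with these genes. Among the kept markers were 1 of the 12 genes, stmn2a, and neurod6b, snap25a, gad1b and neurod6a, given above for large differences. Of the 27 markers on the array 22 were kept. Their mean level, as a log2 deviation from the mean over the 12 arrays, was -0.41, 0.45 and 0.89 in the dark and -0.18, 0.11 and -0.31 after light around dusk, and -0.26, -0.16 and -0.32 in the dark and 0.51, -0.35 and 0.03 after light around dawn. It was thus highest on the dark arrays of CT14 and CT18 and the light array of CT22, the arrays on which the 12 genes were high. Their summed signal ranged from 18068 to 30563 in the dark around dusk, 17781 to 18215 after light around dusk, 18206 to 19644 in the dark around dawn and 19179 to 29278 after light around dawn, and no marker had a signal of 0 on any array. Of the 22 markers, 14 were higher in light than in dark at CT10, 7 at CT14, 3 at CT18, 15 at CT22, 7 at CT2 and 14 at CT6. The sides did not overlap in 1 marker with dusk higher and in 1 with dusk lower (4.55% each, against 10.8% and 6.26% of all genes). With the marker level as a covariate the median of the 12 differences was -1.08, and with the spiked transcripts it was -1.21. Of 18 kept synaptic vesicle genes, 16 had a negative difference and 2 a positive difference (11.1%, against 59.4% of all genes). The list's median of -0.41 was -0.17 with the spiked transcripts as a covariate. In 6 the sides did not overlap with dusk lower (33.3%, against 6.26% of all genes), among them sypa (-0.75 ± 0.24), sypb and nsfa. Snap25a and syt1a are on both lists. The mean level of 7 oligodendrocyte markers was also highest on the dark array of CT18 (0.68) and the light array of CT22 (0.52). On the dark array of CT14 it was -0.35. That of 17 glial markers was highest on the dark array of CT18 (0.34), with -0.15 on the light array of CT22.

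**Figure D4:**
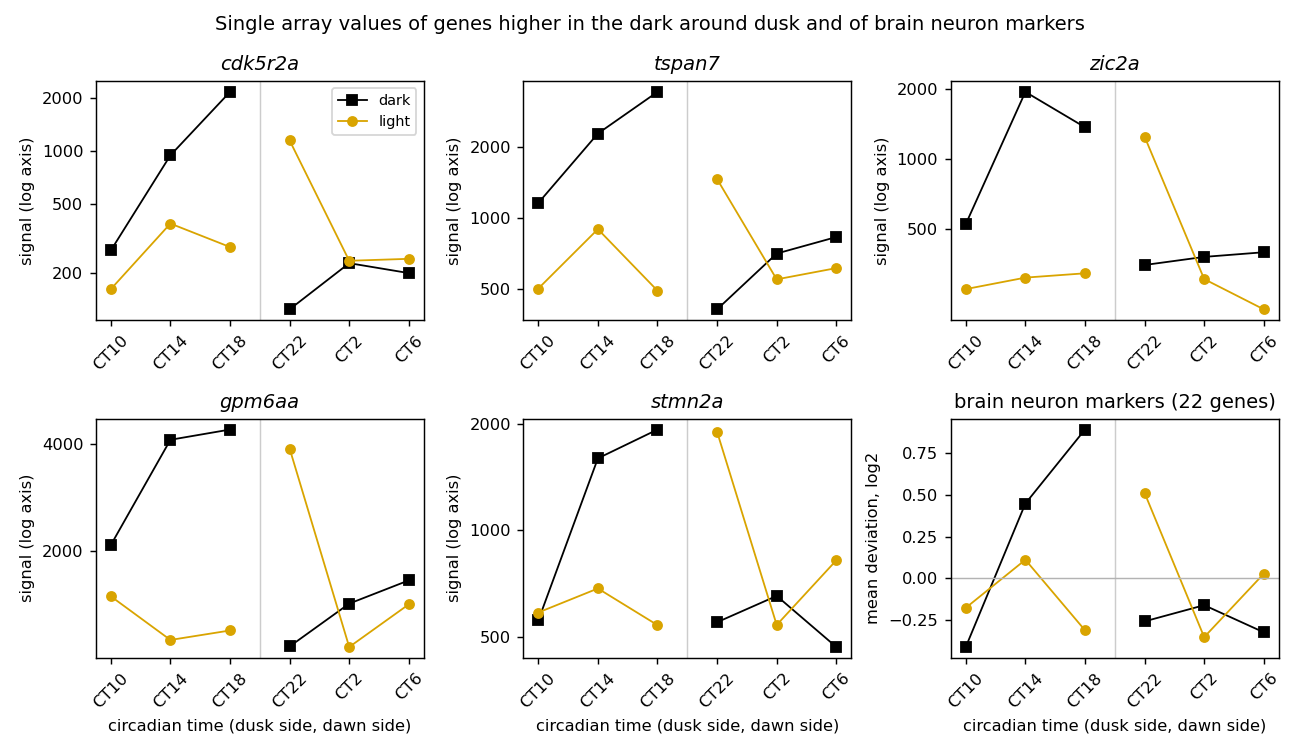
Signal (log axis) of 5 of the 12 genes named for their differences toward dawn, and mean level of 22 brain neuron markers (log2 deviation), on each dark (black squares) and light (yellow circles) array at the 6 circadian times; lines join the arrays of a side. All 6 panels are high on the dark arrays of CT14 and CT18 and on the light array of CT22.

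By the same rule, the 12 genes with the largest differences toward dusk shared no function that their names give. They were LOC100151028 (2.92 ± 0.73), vegfc (2.15 ± 0.58), fem1a (1.86), tnfsf10 (1.68), ciarta (1.67), opn1sw1 (1.66), rrp1 (1.65), grna.1 (1.58), gngt2b (1.53), tmem184c (1.52), psmd3 (1.50) and zgc:153352 (1.49). Vegfc is a growth factor of lymphatic vessels, tnfsf10 a ligand of death receptors, fem1a a substrate receptor of a ubiquitin ligase and grna.1 a granulin. In all 12 the dark level was lower around dusk and the light level higher around dusk than around dawn, which naming by the size of the difference favours. Vegfc read 106, 48.2 and 122 in the dark and 96.2, 142 and 108 after light around dusk, and 98.3, 104 and 108 in the dark and 7.48, 9.25 and 69.4 after light around dawn. The signals on the light arrays of CT22 and CT2 lay below the value of 13 that was added to all signals, so the size of its difference depends on that value (1.3 to 2.92 with 50 and 1 added). In 9 of the 12 genes the light array of CT22 was the lowest light array. The sides did not overlap in 11 of the 12, which the naming also favours, and ciarta alone was called for the mean light response.

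Markers of some other tissues also differed with the sides. Light minus dark in the mean level of 15 skeletal muscle markers was 0.58, 0.80 and 0.75 around dusk and 0.14, 0.25 and 0.22 around dawn, with no overlap. For 27 skin and epithelium markers it was 0.81, -0.20 and 1.35 around dusk and -0.11, -0.14 and 0.00 around dawn, so CT10 and CT18 stood apart. The median differences were 0.48 for muscle, 0.64 for skin, 0.35 for 18 red blood cell markers, 0.33 for 17 leukocyte markers, 0.01 for 17 glial markers and -0.47 for the brain neuron markers. They were 0.06 for 14 connective tissue markers and -0.03 for 7 oligodendrocyte markers, against 0.09 over all genes. The mean level of the connective tissue markers stood out on the dark array of CT10, at 1.04. Light minus dark in it was -0.97 at CT10 and -0.12 to 0.25 at the other times. Endothelium and habenula had 3 kept markers each, with medians of 0.14 and 0.18. With single times left out, the medians of connective tissue, oligodendrocyte, endothelium and habenula markers each took both signs. The muscle median was 0.28 with quantile normalization, 0.27 with brain neuron markers as a covariate and 0.10 over the 3 genes left by the filter at the 60th percentile. The skin median was 0.30 without CT18 and 1.13 without CT14, and was 1.13 with the spiked transcripts and 0.34 with brain neuron markers as a covariate. With quantile normalization the medians of red blood cell and leukocyte markers were 0.17 and 0.18, and the leukocyte median was 0.02 with skin markers as a covariate. Without CT18 the medians of red blood cell and brain neuron markers were 0.20 and -0.24, and without CT22 that of red blood cell markers was 0.21. The muscle actin gene acta1a, which was raised by light by 1.55 to 2.04 around dusk and by 0.72 to 1.07 around dawn (mean 1.3, adjusted p = 0.00298, limma), and the keratin gene krt94 were among the light-called genes whose sides did not overlap. With skin markers as a covariate the ribosomal median was 0.33, the ciarta difference 2.30 and the bhlhe40 difference 1.51. The part of these markers in the other differences was not tested.

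**Figure D5:**
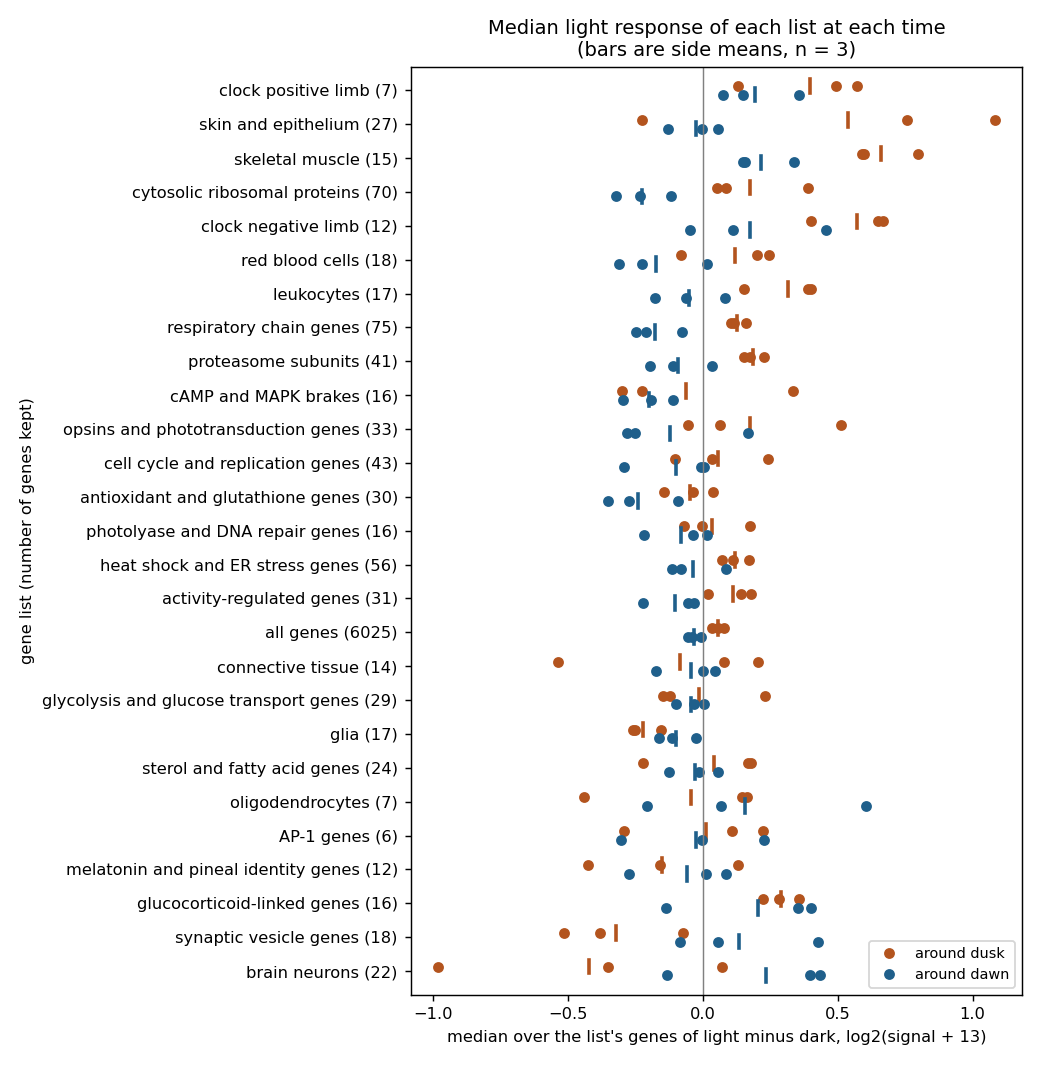
Median over the genes of each list of the light minus dark difference of log2(signal + 13) (horizontal axis) for each list of at least 6 kept genes (vertical axis, number of genes in brackets); points are single times, brown around dusk and blue around dawn, and bars the means of 3. The points of the sides do not overlap for ribosomal, respiratory chain, proteasome, activity-regulated, skeletal muscle and leukocyte genes and for all genes, where they lie between -0.05 and 0.08.

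The level itself, as the mean of the light and dark array of each time, differed between dusk and dawn in few probe sets. Limma called 2 of 9301 (0.0215%), both higher around dusk and neither with a gene symbol, and 734 had an unadjusted p under 0.05. The first was higher by 1.55 ± 0.17 log2 (SE), and its light responses had a difference of 0.03 ± 0.26 between the sides. The second was higher by 1.46 ± 0.17 and had light responses of 1.64, 2.05 and 0.64 around dusk and 0.45, 1.07 and 0.28 around dawn. Neither was called when any 1 time was left out. None of the genes named for the difference between the light responses was called for the level.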

How the data were processed

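The deposited values were intensities, 1 linear signal per probe set and array, made by the authors with GCOS and MAS5 per the submitters' processing notes. They already shared a mean of 200.035 to 200.042 once 2% was trimmed from each end, so they were not scaled again. Per the labels' protocols, RNA was amplified in 2 rounds from an oligo(dT) primer. The number of arrays limits the precision.

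Before log2, 13 was added to each signal (their 10th percentile). A mean log2 of at least 6.16 (a signal of 58.3), the 40th percentile, was required, leaving 9301 probe sets and 6025 genes. Limma 3.58.1 (R 4.3.3), with a variance prior that follows intensity, two-sided tests and Benjamini-Hochberg adjusted p over all tested probe sets under 0.05 as a call, fitted the 12 arrays with circadian time as a block, light, and the product of light with side, leaving 4 residual degrees of freedom. The level was fitted on the 6 means per time. The pairing comes from the labelled times; light and dark deviations of 1 time correlated with r from -0.09 to 0.26, and those of different times of a side with r from -0.30 to 0.14.

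The members and gene lists were chosen with earlier results of these data known. A rule named exorh, aanat2, per2, cry1a and cry5. It took the 12 largest differences in each direction among genes with an unadjusted p under 0.01. It also took the members of each function list under 0.01, or else the 2 with the smallest p. Not all of the 67 genes so named are printed in the text. Some printed genes lie outside the rule, such as bmal1b, csnk1e and fbxl3a, whose sides did not overlap. Symbols come from the platform annotation: of 15502 probe sets that are not controls, 10795 had 1 symbol, 135 several and 4572 none. Promoter windows were not used here. Steps were tested on simulated data. Alternatives were the added value, the filter, quantile normalization, the intensity trend, the time block, each time left out, and covariates for spiked transcripts, brain neuron markers and skin markers, the last pair chosen after seeing the data.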

Additional observations from a re-analysis of the deposited data

Results flagged for a closer look

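In 16 named genes light and dark differed in opposite directions on the 2 sides at all 6 times, higher after light at every time of one side and lower at every time of the other. None was called by limma for the difference (0 of 9301 probe sets, 1043 at an unadjusted p under 0.05). The 16 were among 67 named genes, most of them chosen by the same contrast, which favours opposite signs. The share of such genes among all genes was not counted, so the 16 have no background. Higher around dusk and lower around dawn were fem1a (1.86), gngt2b (1.53), tmem184c (1.52), hspd1 (1.05), cox5ab (0.98), rps19 (0.90), cyp27c1 (0.88), clockb (0.87), psmb6 (0.84), rps26 (0.83), rps29 (0.78), mycb (0.77), fdft1 (0.71) and gclm (0.51), in log2 as dusk minus dawn. Lower around dusk and higher around dawn were cdk5r2a (-2.74) and the synaptic vesicle gene sypa (-0.75). Fdft1 makes squalene in sterol synthesis and gclm encodes a subunit of the enzyme that starts glutathione synthesis.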

How the results depend on the processing

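No probe set was called for the dusk minus dawn light response under any of the 16 alternatives by limma. For the mean light response, leaving out 1 time gave 86 to 179 probe sets called higher and 24 to 115 lower, no intensity trend gave 55 lower, no time block (no replicate block) 114 and 60, the spiked transcripts as a covariate 0 and 0, and skin markers as a covariate 137 and 67. The level calls were 0 with quantile normalization, with no intensity trend, with each time left out and with the spiked transcripts, 4 with brain neuron markers and 1 with skin markers. For the level, the dark arrays alone were used only as values.

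The difference changed sign in 5 genes. For per2 it ran from -0.11 (without CT18) to 0.72 with 1 time left out, was negative also without CT10 (-0.02), and was -0.63 with skin markers. For aanat2 it ran from -0.24 (without CT22) to 0.99, was negative also without CT10 (-0.10) and CT18 (-0.05), and was -0.84 with skin markers. For exorh it ran from -0.23 (without CT22) to 0.71, was negative also without CT18 (-0.18), and was -0.59 with brain neuron markers and -0.47 with skin markers. For fosab it ran from -0.19 (without CT22) to 0.95, was negative also without CT18 (-0.04), and was -0.55 with the spiked transcripts, -0.51 with brain neuron markers and -0.037 with skin markers. For cry1a it was 0.11 with brain neuron markers and 0.048 with skin markers. The cause was not tested. The 24 genes named for the size of their difference kept their direction in every alternative that gave a value, which naming by that size favours. Only 11 of them had a value with the filter at the 60th percentile.

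With 4 residual degrees of freedom and 3 pairs a side, differences of several SE were not called either, such as that of ciarta (1.67 ± 0.37). A difference that was not called is therefore not shown to be small. Signals near the added value have compressed differences.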
